A study of Rattus norvegicus with 9 samples.

Results

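The enzymes and carriers that break down amino acids were followed in livers of young and old rats through the transcripts of 31 genes. The genes were chosen by symbol for their place in the breakdown of tyrosine, tryptophan, histidine, methionine, glycine, serine, branched-chain amino acids, lysine and proline. The count table spells them GOT1, GPT, TAT, TDO2, HPD, HGD, FAH, SDS, SDSL, HAL, UROC1, AMDHD1, FTCD, PRODH, CTH, CBS, BHMT, MAT1A, GNMT, KMO, KYNU, HAAO, AASS, AGXT, GLDC, AMT, BCKDHA, BCKDHB, DBT, SLC25A13 and TST, and the usual rat spelling with small letters is used below. All 31 had a row among the 23479 symbols of the count table, and all 31 passed the filter on low counts. Poly(A) RNA had been sequenced from livers of 9 male Wistar rats, an outbred laboratory strain. The young group held 5 animals of 6 months (young 1 to 5) and the old group 4 animals of 24 months (old 1 to 4). The series design gives 1 liver per animal, and no treatment or genotype beside strain, sex and age.

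Hepatocytes are the main site of amino acid breakdown in the body. The pathways remove the amino group, some by transamination and others by other reactions. They degrade the carbon skeleton to intermediates that feed glucose synthesis, ketone bodies or the citrate cycle. In rodents many of these genes are induced by glucocorticoids, glucagon, fasting or a protein-rich diet, and Tat and Sds are textbook examples. The labels give neither the feeding state nor the hour of sampling.

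Library totals ran from 18586798 to 32882704 counts, and values below are CPM, the counts scaled to a common library size with edgeR's TMM factors. A value with ± after it is a group mean with its SD over 5 young or 4 old animals, except that a log2 fold change has its standard error (SE). Counts of this table do not account for transcript length, so levels are compared between libraries and never between genes. All 12 hepatocyte markers examined were detected in every library, and their sum ranged over 180093 to 202903 CPM among young animals and 216852 to 332266 CPM among old ones. Old 1, the library with the largest total, held only even counts, as if each had been doubled. If so, its true depth was lower than its total. Heart muscle markers, 22 in all, summed to 118 to 146 CPM in young 2 to 5, 14.4 CPM in young 1 and at most 8.21 CPM in any old liver, and their part in the results was not tested. In bulk liver RNA, fewer cells of a type and less RNA per cell cannot be told apart.

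On average the enzymes lay at much the same level at both ages, and the old animals stood apart from each other. The summed level of the 31 genes was 16193, 17224, 16760.1, 13229.7 and 17221 CPM in young 1 to 5 and 14179, 18794, 10005 and 21196 CPM in old 1 to 4. The sums of the young animals stayed within a narrower band than those of the old ones, and old 3 was the lowest and old 4 the highest of all 9. Genes with many counts, such as Bhmt, weigh most in this sum. Some single genes, such as Sds, varied far more among young animals. The group means were 16125 ± 1673 CPM (SD, n = 5) and 16043 ± 4969 CPM (SD, n = 4). By edgeR's quasi-likelihood test 0 of the 31 genes passed an adjusted p of 0.05, where 1.00% of the 12778 genes tested did. An unadjusted p under 0.05 was reached by 4 genes, against 15.9% of all genes. Of these, Tat, Kynu and Amdhd1 were lower and Haao was higher in old livers. DESeq2 called those 3 lower and none higher (5.13% of all genes were called by it, 3.02% higher and 2.11% lower), and limma-voom called 0 (0.477% of all genes). The median log2 fold change, old over young, was 0.06 for the 31 genes and 0.01 for all genes, and 13 of the 31 lay below 0 (48.8% of all genes). With library totals as the only scaling, these medians were -0.10 and -0.17, and 19 of the 31 lay below 0 (72.6% of all genes).

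**Figure D1:**
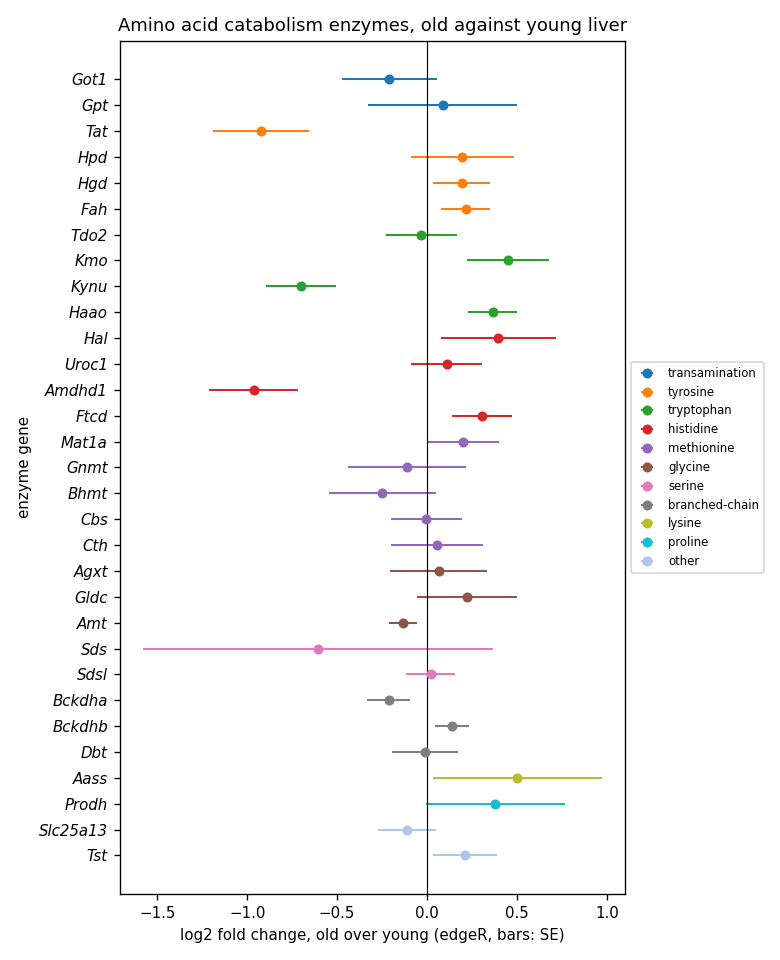
Log2 fold change of each of the 31 genes, old over young, with its standard error (edgeR fit over 9 libraries), coloured by pathway. Tat, Kynu and Amdhd1 lie near or below -0.70, and most other genes lie within 1 or a few standard errors of 0.

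Old 3 was low across the pathways. It had the lowest value of all 9 libraries for 21 of the 31 genes (13.5% of all genes), and it lay below every young library for 23 (25.4% of all genes) and above all of them for 0 (25.1%). The median log2 distance of the set from the young mean was -0.56 in that animal (against -0.01 for all genes). Among the 6582 genes with at least the mean level of the lowest member, 30.1% lay below every young library in old 3. Of the 12 hepatocyte markers, 7 lay above and 2, Apoh and Asgr1, below every young library in old 3, with a median log2 distance of 0.40 from the young mean. The 6 lowest ratios of old 3 to the young mean were 0.196 for Sds, 0.266 for Gpt, 0.352 for Kynu, 0.372 for Gnmt, 0.419 for Tat and 0.444 for Prodh.

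Macrophage, T cell and erythroid marker sums were highest in old 3. The 8 macrophage markers summed to 590.2 CPM in old 3 and to 56.8 to 309 CPM in the other 8 libraries. Of the 8, Cd5l had 0 counts in every library. The 8 T cell markers summed to 81.9 CPM in old 3 against 16.2 to 34.6 CPM elsewhere. S100a9, a neutrophil calcium-binding protein gene, lay at 76.0 CPM in old 3 and at most at 3.53 CPM elsewhere. The 8 erythroid markers summed to 2467 CPM in old 3, 589 to 1710.4 CPM in the other old livers and 78.2 to 443 CPM in young livers. Endothelial, stellate, bile duct and B cell marker sums in old 3 were 242, 188, 40.9 and 1.34 CPM, each within the range of the other 8 libraries. The part of any of these cells in the low enzyme values was not tested.

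Old 4 and old 2 were high for much of the same set. Old 4 lay above every young library for 16 of the 31 genes (22.7% of all genes) and had the highest value of all 9 for 10 (11.2%). Old 2 lay above every young library for 13 (22.2%) and had the highest value for 6 (8.52%). Old 1 lay above every young library for 6 (31.7%) and had the highest value for 3 (23.0%). The medians of the set, as log2 distance from the young mean, were 0.04 in old 1, 0.23 in old 2 and 0.37 in old 4. The ratio of old 4 to old 3 reached 6.62 for Gpt, 6.66 for Sds, 5.25 for Prodh and 4.48 for Aass, and it was above 1 for all 31. Old 4 was also the library with 2052 CPM of Cyp2c12, a female-biased P450 gene with close paralogs, against 6.13 to 60.9 CPM in the others. Its part in the enzyme values was not tested.

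**Figure D2:**
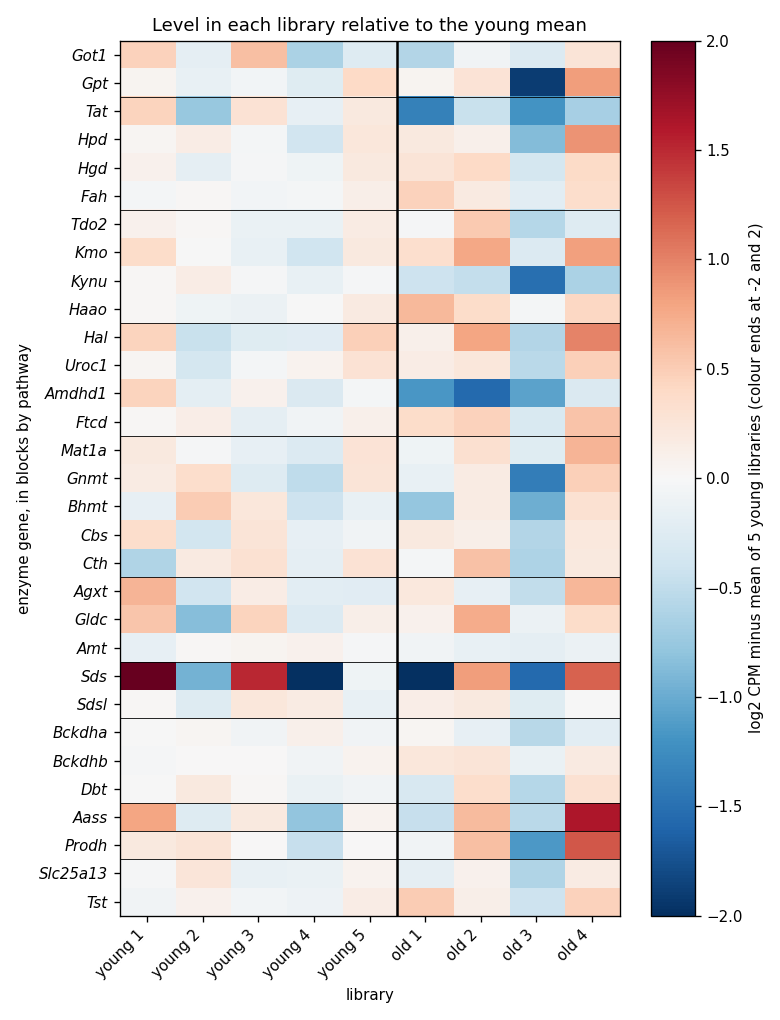
Log2 CPM of each of the 31 genes in each library, relative to the mean of the 5 young libraries, with blue for lower and red for higher values and black lines between pathways. The column of old 3 is blue for most genes, with Gpt, Kynu and Gnmt darkest beside Sds, and the column of old 4 is mostly red, with Aass and Prodh darkest.

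The coefficient of variation was larger in old than in young animals for 26 of the 31 genes (83.9%), against 74.9% of the 6582 genes of similar or higher level. Its median over the set was 29.5% among old and 16.0% among young animals, and 15.6% and 9.70% over those 6582 genes. Without old 3 the coefficient was larger in old animals for 15 of the 31, with a median of 22.3%, against 69.5% of those 6582 genes, with a median of 14.8%. Without old 3, edgeR called 0 of the 31 genes (0.733% of all genes, 0.483% higher and 0.249% lower), while 12 had an unadjusted p under 0.05, 9 of them higher and 3 lower in old livers (9.90% and 7.40% of all genes). DESeq2 without old 3 called 6 higher, from 5.31% of all genes in either direction, namely Hgd, Fah, Kmo, Haao, Ftcd and Bckdhb, and 2 lower, Kynu and Amdhd1 (3.12% and 2.19% of all genes). That fit was added after the values were seen. Old 3 lay below every young library for Hgd, Fah, Ftcd and Bckdhb. Leaving it out raises the old means of such genes, so these calls are no separate support for a rise with age.

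RefSeq promoters of the GRCr8 build were matched for 23 of the 31 genes. Shown are those of Tat, Kynu and Haao, which had an unadjusted p under 0.05, as did 15.9% of all genes. None of these passed the adjusted threshold. Also shown is that of Dao, the 1 gene edgeR called among further genes of these pathways. The genes Amdhd1, Bckdha, Gpt, Hal, Prodh, Sds, Sdsl and Tst are named only. The 250 bases before the annotated start are shown 5′ to 3′ on the strand of the gene, with CCAAT or its reverse ATTGG in capitals. They lie at chr19:54856354-54856603 (Tat, + strand), chr3:48188036-48188285 (Kynu, + strand), chr6:16598075-16598324 (Haao, + strand) and chr12:48273301-48273550 (Dao, - strand).
Tat: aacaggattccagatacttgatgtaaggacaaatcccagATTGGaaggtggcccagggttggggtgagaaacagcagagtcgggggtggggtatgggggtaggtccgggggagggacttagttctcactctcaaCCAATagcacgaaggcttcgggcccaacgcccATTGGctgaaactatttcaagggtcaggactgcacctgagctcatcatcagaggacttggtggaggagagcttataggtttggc
Kynu: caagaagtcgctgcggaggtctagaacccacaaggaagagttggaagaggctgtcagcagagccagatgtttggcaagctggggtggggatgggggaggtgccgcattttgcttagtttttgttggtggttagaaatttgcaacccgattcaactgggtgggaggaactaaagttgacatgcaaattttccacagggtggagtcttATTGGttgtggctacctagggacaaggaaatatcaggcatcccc
Haao: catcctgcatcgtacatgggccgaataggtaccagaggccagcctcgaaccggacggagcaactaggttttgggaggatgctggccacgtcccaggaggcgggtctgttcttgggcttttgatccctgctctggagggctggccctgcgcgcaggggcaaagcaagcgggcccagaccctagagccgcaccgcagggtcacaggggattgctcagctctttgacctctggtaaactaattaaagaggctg
Dao: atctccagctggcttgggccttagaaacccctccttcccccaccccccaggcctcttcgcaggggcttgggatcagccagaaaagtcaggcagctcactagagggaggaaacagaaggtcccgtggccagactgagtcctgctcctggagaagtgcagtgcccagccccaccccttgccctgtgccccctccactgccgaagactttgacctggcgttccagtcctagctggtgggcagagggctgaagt

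The window of Tat holds 3 of these words and that of Kynu 1, and those of Haao and Dao hold 0. CCAAT on either strand was found in 17 of the 23 matched promoters (73.9%), against 34.0% of all 33469 promoters and 35.7% of the 9073 that belong to tested genes. AGGTCA, the half-site of nuclear receptors, was found in 8 (34.8%, against 14.1% and 10.9%), Haao among them. TATAAA was found in 4 (17.4%, against 12.9% and 6.65%), and AGAACA, a half-site of the glucocorticoid receptor, in 5 (21.7%, against 17.5% and 10.7%). The E-box CACGTG was found in Cth alone (4.35%, against 5.59% and 8.12%) and GTTAAT in 2 genes (8.70%, against 6.45% and 4.20%). CAAAGTCCA was found in Kmo alone (4.35%, against 0.338% and 0.375%). The element TGACGTCA of the cyclic AMP response, the D-box word TTATGTAA, the C/EBP words TTGCAAT and also TTGCGCAA, the forkhead word TGTTTAC, the word TGATTCAA and lastly the word TGATTGA were found in 0 of the 23, and in 0.140% to 3.21% of all promoters. The words were chosen with the values known. Both strands were read, no word contains another, and a match describes letters in this window only.

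In tyrosine breakdown 0 of 4 genes passed edgeR's test, and the mean of the entry enzyme Tat was lower and the means of the other 3 were higher in old livers. Tat encodes tyrosine aminotransferase, which takes the amino group off tyrosine. It lay at 1368, 599, 1233, 898 and 1155 CPM in young 1 to 5 and 396, 745, 439.8 and 635 CPM in old 1 to 4. Old 1 and old 3 were below the lowest young animal, young 2, and old 2 and old 4 lay within the young range, so the groups overlapped. The log2 fold change was -0.92 ± 0.27 (SE; edgeR unadjusted p = 0.00572, adjusted p = 0.134; DESeq2 adjusted p = 0.0161). Hpd encodes the dioxygenase that makes homogentisate, Hgd the one that opens its ring, and Fah the hydrolase that splits fumarylacetoacetate. Hpd lay at 1816 ± 278 CPM (young) and 2080.1 ± 969 CPM (old), Hgd at 275 ± 28.0 CPM (young) and 315 ± 68.1 CPM (old) and Fah at 449.5 ± 22.2 CPM (young) and 521 ± 100.1 CPM (old). For Hgd and Fah, old 1, 2 and 4 lay above every young animal and old 3 below every one. Their adjusted p-values by edgeR were 0.762, 0.571 and 0.471.

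In tryptophan breakdown, the kynurenine pathway, 0 of 4 genes passed edgeR's test. The means of Kynu and Tdo2 were lower and those of Kmo and Haao higher in old livers. Tdo2 encodes tryptophan dioxygenase, which starts the pathway in liver, and lay at 764 ± 70.0 CPM (young) and 748 ± 250.2 CPM (old) (adjusted p = 0.949, edgeR). Kmo, the kynurenine hydroxylase, lay at 181 ± 37.0 CPM (young) and 248 ± 78.5 CPM (old) (log2 0.45 ± 0.23, SE; adjusted p = 0.372, edgeR). Kynu encodes kynureninase, which cleaves the alanine side chain from hydroxykynurenine. It lay at 289, 316, 280.3, 257 and 280.5 CPM in young 1 to 5 and 212, 204, 100.2 and 184 CPM in old 1 to 4. Every old animal was below every young one, the only gene of the 31 for which the groups did not overlap (6.53% of all genes, 3.12% with old lower and 3.40% with old higher). Its log2 fold change was -0.70 ± 0.20 (SE; edgeR unadjusted p = 0.00477, adjusted p = 0.128; DESeq2 adjusted p = 0.0191), and -0.51 without old 3. With totals-only scaling edgeR called it (adjusted p = 0.0490), where 2.19% of all genes were called, 0.563% higher and 1.63% lower. Haao encodes the dioxygenase that makes the precursor of quinolinate, and lay at 199, 185, 182, 196 and 222 CPM in young 1 to 5 and 308, 254, 191 and 261 CPM in old 1 to 4. Old 1, 2 and 4 were above every young animal and old 3 was among them. The log2 fold change of Haao was 0.36 ± 0.14 (SE; edgeR unadjusted p = 0.0218, adjusted p = 0.232).

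In histidine breakdown 0 of 4 genes passed edgeR's test, and the mean of Amdhd1 was lower and those of the other 3 were higher in old livers. Hal, the lyase that starts it, lay at 221 ± 66.8 CPM (young) and 291 ± 128 CPM (old), and Uroc1, the urocanate hydratase, at 390.0 ± 60.8 CPM (young) and 421 ± 114 CPM (old). Amdhd1 encodes the imidazolonepropionase that follows, and lay at 139, 88.5, 108, 83.4 and 98.9 CPM in young 1 to 5 and 45.3, 34.7, 48.5 and 83.6 CPM in old 1 to 4. Old 1, 2 and 3 were below every young animal, and old 4 stood level with the lowest young one. The log2 fold change was -0.96 ± 0.25 (SE; edgeR unadjusted p = 0.00290, adjusted p = 0.103; DESeq2 adjusted p = 0.00637). Without old 4 it was -1.27 and edgeR called it (adjusted p = 0.0182), where 0.702% of all genes were called, 0.538% higher and 0.164% lower. The span of Amdhd1 overlaps that of Ccdc38 in the GRCr8 annotation, so with a kit that does not mark strand its counts are uncertain. Ftcd, which passes the formimino group to folate and so ends the pathway, lay at 342 ± 29.7 CPM (young) and 423 ± 103 CPM (old) (adjusted p = 0.405, edgeR), with old 1, 2 and 4 above every young animal and old 3 below.

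**Figure D3:**
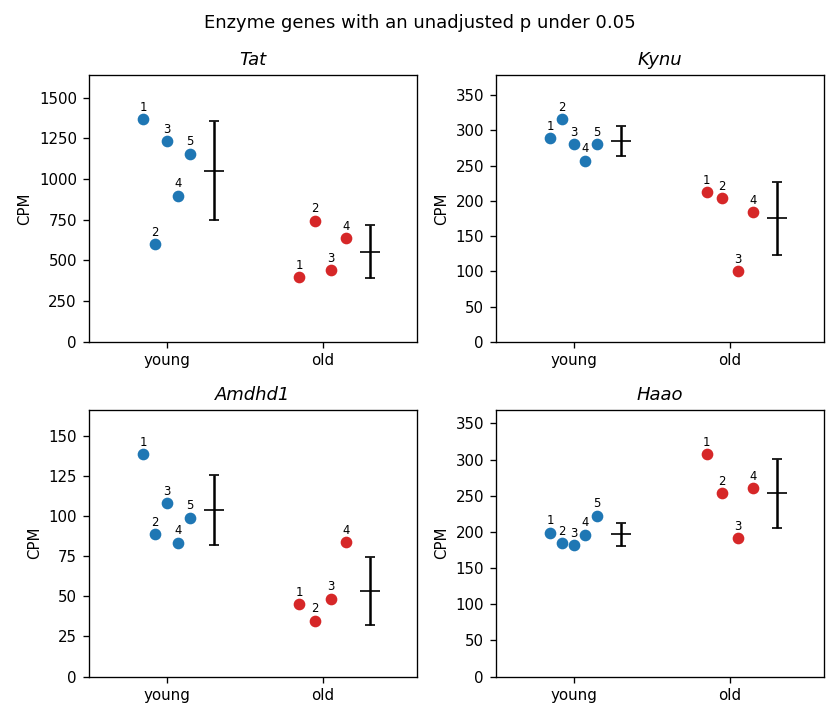
CPM of Tat, Kynu, Amdhd1 and Haao in each library (points with the replicate number; bars: mean ± SD, 5 young and 4 old animals). The old animals lie below all young ones for Kynu, overlap them at young 2 for Tat and at young 4 for Amdhd1, and lie mostly above them for Haao.

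A ratio of 2 genes within 1 library does not depend on library scaling. For this reason 15 ratios of enzymes from the same pathway were formed from the counts. This was chosen after the values had been seen, and the ratios are given with no test. The groups did not overlap for 5 of the 15, where 7.26% of all pairs of tested genes had groups that did not overlap and 57 of the 465 pairs of the 31 genes did so (12.3%). Of the 5, 4 contain Kynu or Amdhd1. The ratio of Kmo to Kynu was 0.797, 0.564, 0.572, 0.525 and 0.726 in young 1 to 5 and 1.06, 1.49, 1.47 and 1.72 in old 1 to 4. Old 3, which had the lowest level of Kynu, stood with the other old animals here. The ratio of Kynu to Haao was 1.45, 1.71, 1.54, 1.31 and 1.26 in young 1 to 5 and 0.689, 0.805, 0.523 and 0.705 in old 1 to 4. All old animals were below 1 and all young animals above it, although the unit of the ratio depends on the lengths of both transcripts. The ratio of Amdhd1 to Ftcd was 0.399, 0.237, 0.359, 0.257 and 0.270 in young 1 to 5 and 0.103, 0.0739, 0.176 and 0.165 in old 1 to 4. In this ratio old 4 too lay below the young animals. Its Amdhd1 level lay within the young range, and its Ftcd and Uroc1 levels lay above every young animal. The ratio of Uroc1 to Amdhd1 was 2.87 to 4.86 in young and 5.46 to 13.1 in old animals. By contrast the ratio of Hgd to Fah, both of tyrosine breakdown, was 0.612 ± 0.0551 in young and 0.604 ± 0.0794 in old animals.

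**Figure D4:**
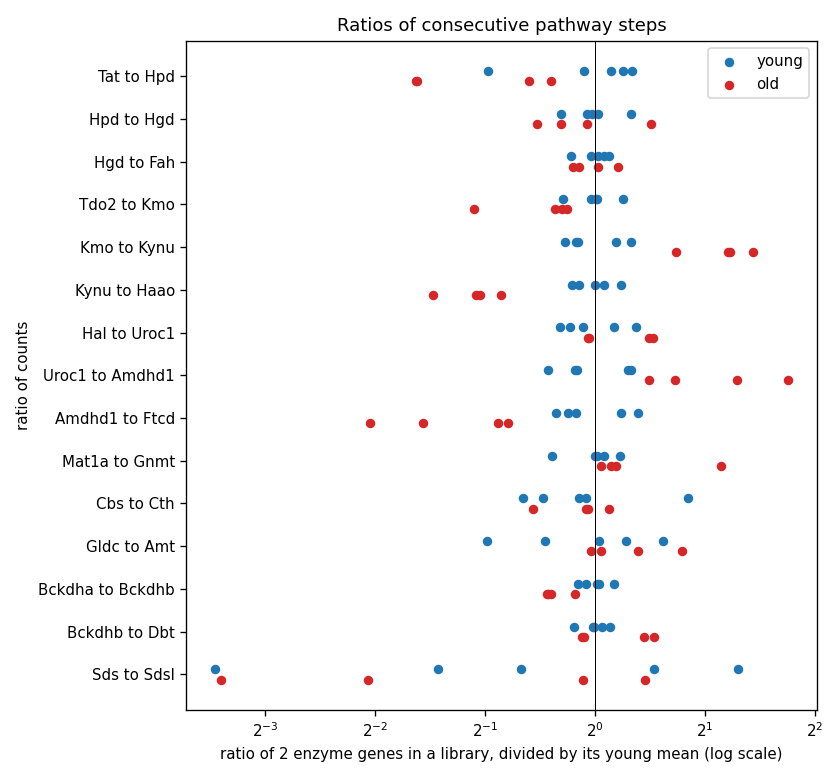
Ratio of counts of enzymes from the same pathway in each library, on a log scale (blue: 5 young, red: 4 old). Each ratio is divided by its mean over the young libraries. Red and blue points are separate for Kmo to Kynu, Kynu to Haao, Uroc1 to Amdhd1, Amdhd1 to Ftcd and Bckdha to Bckdhb, and Sds to Sdsl has the widest scatter in both groups.

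In methionine breakdown 0 of 5 genes passed edgeR's test. Mat1a makes S-adenosylmethionine in hepatocytes, Gnmt spends its methyl group on glycine, Bhmt remethylates homocysteine with betaine, and Cbs and Cth pass the sulfur on to cysteine. Mat1a lay at 2472, 2128, 1918, 1782 and 2595 CPM in young 1 to 5 and 2027, 2687, 1831 and 3462 CPM in old 1 to 4, with old 2 and old 4 above every young animal. Its log2 fold change was 0.20 ± 0.20 (SE; edgeR adjusted p = 0.653). Gnmt was 35.7 CPM in old 3 and 131 CPM in old 4, around a young mean of 96.2 ± 23.1 CPM, and the ratio of Mat1a to Gnmt was 51.2 in old 3 against 17.7 to 27.1 in the other 8 libraries. Bhmt, whose counts are uncertain because of its close paralog Bhmt2, lay at 3828 ± 999 CPM (young) and 3224 ± 1384 CPM (old). Cbs lay at 236 ± 49.3 CPM (young) and 236 ± 54.1 CPM (old) and Cth at 1851 ± 449 CPM (young) and 1922 ± 637 CPM (old). The 5 log2 fold changes ran from -0.25 to 0.20 with standard errors of 0.20 to 0.33, so moderate changes in either direction lie within their error.

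Glycine and serine breakdown held the gene with the smallest spread among old animals, Amt, and the gene with the largest spread at both ages, Sds. Amt, the aminomethyltransferase of the glycine cleavage system, lay at 53.5, 61.2, 62.6, 63.7 and 59.3 CPM in young 1 to 5 and 57.1, 54.0, 52.9 and 55.0 CPM in old 1 to 4, and its coefficient of variation was 6.71% in young and 3.29% in old animals. Its log2 fold change was -0.13 ± 0.08 (SE; edgeR adjusted p = 0.439). The span of Amt overlaps that of Nicn1, so its counts are uncertain too. Gldc, the decarboxylase of the same system, lay at 104 ± 36.9 CPM (young) and 121 ± 32.1 CPM (old), and Agxt, which turns glyoxylate into glycine, at 116 ± 38.0 CPM (young) and 122 ± 42.1 CPM (old). Sds encodes serine dehydratase, which turns serine into pyruvate. It lay at 93.1, 11.5, 63.4, 3.79 and 21.0 CPM in young 1 to 5 and 3.88, 39.7, 7.56 and 50.4 CPM in old 1 to 4. The highest young animal had 24.6 times the level of the lowest, and the highest old animal 13.0 times. With a standard error this wide, a moderate change with age cannot be told from 0 (log2 -0.61 ± 0.97, SE; edgeR adjusted p = 0.784). Its paralog Sdsl varied far less, from 9.79 to 13.8 CPM over all 9 libraries.

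The branched-chain ketoacid dehydrogenase commits leucine, isoleucine and valine to breakdown. Bckdha and Bckdhb encode both chains of its decarboxylase, and Dbt its acyltransferase core. Bckdha lay at 160.3, 165, 153, 173 and 152 CPM in young 1 to 5 and 165, 143, 109 and 138 CPM in old 1 to 4, with old 2, 3 and 4 below every young animal. Its log2 fold change was -0.21 ± 0.12 (SE; edgeR adjusted p = 0.419). Bckdhb lay at 91.1 ± 3.33 CPM (young) and 100.3 ± 11.7 CPM (old), and Dbt at 74.9 ± 6.56 CPM (young) and 74.4 ± 22.7 CPM (old). The ratio of Bckdha to Bckdhb was 1.79, 1.81, 1.67, 1.99 and 1.59 in young 1 to 5 and 1.56, 1.31, 1.31 and 1.34 in old 1 to 4, and the groups did not overlap. The span of Bckdha overlaps that of Exosc5, and its counts are uncertain for that reason.

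For lysine, Aass, the enzyme that starts its main breakdown route in mitochondria, lay at 313, 152, 207, 104 and 189.9 CPM in young 1 to 5 and 131, 281, 124 and 558 CPM in old 1 to 4. Old 4 was the highest of all, and the other old animals lay within the young range. The log2 fold change, 0.50 ± 0.47 with all animals (adjusted p = 0.624, edgeR), was -0.11 without old 4. Prodh, the proline dehydrogenase, lay at 147, 153, 128, 93.1 and 129 CPM in young 1 to 5 and 122, 195, 57.8 and 303 CPM in old 1 to 4, with old 2 and old 4 above and old 1 and old 3 below the young mean. Its log2 fold change was 0.38 ± 0.39 (SE; edgeR adjusted p = 0.657), and -0.06 without old 4.

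The transaminases and the remaining genes did not pass the test either. Got1, the cytosolic aspartate aminotransferase, lay at 153, 98.5, 168, 71.3 and 93.1 CPM in young 1 to 5 and 74.0, 106, 92.2 and 133 CPM in old 1 to 4, with overlapping groups. Gpt, the alanine aminotransferase, lay at 195, 171, 181, 159 and 248 CPM in young 1 to 5 and 196, 228, 50.7 and 335 CPM in old 1 to 4. Old 3 was far below and old 4 far above every young animal, and the group means of 191 and 203 CPM lay close together. Slc25a13, the mitochondrial carrier that exports aspartate, lay at 289.9 ± 32.6 CPM (young) and 268 ± 59.4 CPM (old). Tst, a sulfurtransferase that detoxifies cyanide, lay at 267, 299, 269, 263 and 311 CPM in young 1 to 5 and 401, 306, 210.0 and 388 CPM in old 1 to 4, with old 1 and old 4 above and old 3 below every young animal (log2 0.21 ± 0.18, SE; edgeR adjusted p = 0.578). The span of Tst overlaps that of its paralog Mpst. In all, 13 of the 31 genes overlap another annotated gene, 6 of them a protein-coding one, and the others of these 6 are Gnmt and Slc25a13. Without strand, reads from bases that both genes share cannot be told apart. Only whole gene spans were compared, and whether exons overlap was not examined.

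A further 71 genes of the same pathways were listed, of which 68 passed the filter on low counts. Of these 1 was called higher and 0 lower by edgeR (0.657% and 0.344% of all genes). At an unadjusted p under 0.05, 6 were higher and 0 lower (8.94% and 6.96% of all genes). The called gene was Dao, the oxidase of D-amino acids, which lay at 85.2, 98.6, 65.3, 75.4 and 128 CPM in young 1 to 5 and 195, 216, 157 and 163 CPM in old 1 to 4. Every old animal was above every young one. On the log2 scale it rose by 1.02 ± 0.19 (SE; adjusted p = 0.0405, edgeR), and it kept its call in 2 of the 9 fits that left out 1 library, with adjusted p-values from 0.0228 (without young 5) to 0.110 (without young 4). Gcdh, the glutaryl-CoA dehydrogenase shared by lysine and tryptophan breakdown, lay at 248, 315, 239.8, 244 and 319 CPM in young 1 to 5 and 438, 496, 272 and 457 CPM in old 1 to 4. Old 1, 2 and 4 were above every young animal and old 3 was among them (log2 0.60 ± 0.18, SE; edgeR adjusted p = 0.145, and 0.0368 without old 3). Prodh2, for hydroxyproline, lay at 115 ± 22.9 CPM (young) and 162 ± 38.6 CPM (old), and Pccb, a subunit of propionyl-CoA carboxylase, at 154 ± 11.7 CPM (young) and 193 ± 29.6 CPM (old). Acmsd, which diverts the tryptophan pathway away from quinolinate, lay at 10.1 ± 1.15 CPM (young) and 15.6 ± 6.78 CPM (old), and Mpst, the mercaptopyruvate sulfurtransferase, at 79.0 ± 5.01 CPM (young) and 96.6 ± 16.7 CPM (old). The log2 fold change of Acmsd was 0.63, and 0.32 without old 4. Among these genes edgeR called Dao alone.

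None of the other 7 genes named here from that list passed edgeR's test. The log2 fold changes were 0.28 for Auh and 0.28 for Aldh7a1, of leucine and lysine breakdown. They were -0.07 for glutamate dehydrogenase Glud1, -0.07 for the mitochondrial aspartate aminotransferase Got2, -0.04 for Shmt1, 0.23 for Ahcy and -0.02 for Bcat2. Old 3 was the lowest of the 9 libraries for 37 of the 68 genes (13.5% of all genes). It lay below every young library for 45 of the 68 (66.2%, against 25.4% of all genes). Its low values were thus not limited to the 31 genes.

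Of 14 regulators of these pathways 0 passed edgeR's test (1.00% of all genes), 1 had an unadjusted p under 0.05 (15.9%), and DESeq2 called 1 (5.13%). That gene was Ppargc1a, a coactivator of the fasting response, which lay at 1.26, 1.56, 1.32, 0.923 and 0.923 CPM in young 1 to 5 and 1.83, 2.59, 2.44 and 3.53 CPM in old 1 to 4. All old animals were above all young ones (log2 1.11 ± 0.26, SE; edgeR adjusted p = 0.0729; DESeq2 adjusted p = 0.00593). The glucocorticoid receptor Nr3c1 lay at 138 ± 27.9 CPM (young) and 119.8 ± 22.4 CPM (old), and its targets Fkbp5 and Tsc22d3 had log2 fold changes of 0.25 ± 0.16 and -0.39 ± 0.36 (SE). The gluconeogenic gene Pck1 lay at 2437 ± 722 CPM (young) and 1887 ± 657 CPM (old). The log2 fold changes of the liver factors Hnf4a, Cebpa, Cebpb, Klf15, Foxo1, Ppara and Creb3l3 were -0.12, -0.02, -0.02, -0.21, 0.13, -0.27 and 0.15. Those of the glucagon receptor Gcgr and of Atf4, which responds to amino acid shortage, were -0.18 and 0.21. In old 3 the median regulator lay at -0.01 from the young mean, against the -0.56 of the enzymes.

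Of 11 clock genes tested 0 passed, and 4 were lower and 1 higher at an unadjusted p under 0.05 (6.96% and 8.94% of all genes). Dbp, a clock output factor, lay at 4.08, 19.3, 5.66, 8.11 and 6.66 CPM in young 1 to 5 and 2.04, 1.09, 2.68 and 3.85 CPM in old 1 to 4, with every old animal below every young one (edgeR adjusted p = 0.122). The clock repressor Nr1d1 lay at 45.7 ± 9.40 CPM (young) and 21.5 ± 11.4 CPM (old). Their part in the values of Tat, Kynu or Amdhd1 was not tested.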

How the data were processed

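Liver poly(A) RNA of 9 animals was purified with an RNeasy kit and made into TruSeq RNA v2 libraries, which do not mark strand, per the labels' protocols. The authors deposited raw counts per gene symbol, 1 column per animal and with no normalization. Reads were aligned with BWA, per the submitters' processing notes. For genome build, annotation and counter, the sources used here name none. RefSeq's GRCr8 annotation, matched by symbol for 16431 symbols, was used for names, for neighbouring genes and for the printed promoters.

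From the counts, edgeR's filterByExpr (minimum count 10, minimum total 15) kept 12778 of 18071 genes with any count. A quasi-likelihood F test with robust dispersion on TMM-scaled counts of all 9 libraries compared old with young, two-sided, with Benjamini-Hochberg adjustment over all 12778 genes and 0.05 as threshold. A standard error is the log2 fold change divided by the square root of F. CPM use TMM-scaled totals, and log2 CPM add a prior count of 2. A count of 0 allows up to 3 counts, or 0.106 to 0.172 CPM, which covers counting error only. The value of 0.106 CPM is that of old 1, and it would be higher if the counts of old 1 were doubled. The fit was tested on simulated counts.

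The members and lists were chosen with earlier results of these data known. The genes named are all 31 members, with every library's value for those at an unadjusted p under 0.05 and for the smallest p of each pathway. They also include the called gene, the 8 smallest p-values and 6 fixed genes among the other pathway genes, of which 1 is not reported here, and 14 regulators. Gpt, Dbp and Nr1d1 were given in detail after their values were seen. Alternatives were other scalings and filters, DESeq2, limma-voom, a replicate block, old 1 halved and left-out libraries. Added after seeing the data were DESeq2 without old 3, and replicates 1 to 4 with no block. Versions were Python 3.11.15, DESeq2 1.42.0, edgeR 4.0.16, limma 3.58.1 and R 4.3.3.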

Additional observations from a re-analysis of the deposited data

Results flagged for a closer look

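Single libraries stood apart from the rest of their group for 5 of the 118 groups of values examined (59 genes at both ages), and chance flags about 1 group in 20. Cbs lay at 155 CPM in old 3, below the 252 to 269.8 CPM of the other old animals, a gap of 0.844 of the range (Dixon's critical value 0.829). Pccb lay at 149 CPM in old 3, below the 203 to 212 CPM of the other old animals, a gap of 0.854 of the range (Dixon's critical value 0.829). Acmsd lay at 12.1 CPM in young 1, above the 9.33 to 9.76 CPM of the other young animals, a gap of 0.845 of the range (Dixon's critical value 0.71). Mpst lay at 87.5 CPM in young 5, above the 74.4 to 78.1 CPM of the other young animals, a gap of 0.717 of the range (Dixon's critical value 0.71). Bcat2 lay at 7.76 CPM in old 2, above the 4.89 to 5.22 CPM of the other old animals, a gap of 0.886 of the range (Dixon's critical value 0.829).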

How the results depend on the processing

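All counts here are genes past an adjusted p of 0.05. Over all genes edgeR called 128 (1.00% of those tested). That count was 280 (2.19%) with library totals as the only scaling (72 higher and 208 lower, so 25.7% higher against 65.6%). It was 655 (5.13%) with DESeq2, 61 (0.477%) with limma-voom and 681 (5.31%) with DESeq2 without old 3. Without old 3 and old 4 together it was 98 (0.761%). It ran from 30 to 201 when 1 library was left out, with 35, 34, 30 and 39 without young 2, 3, 4 and 5, 60 without old 1 and 201 without old 2. Of the 31 enzymes 0 were called. That count was 1 with library totals (Kynu), 3 with DESeq2, 1 without old 3 and old 4 together (Amdhd1, adjusted p = 0.0315) and 8 with DESeq2 without old 3, and it ran from 0 to 1 when 1 library was left out. Of the other pathway genes 1 was called. That count was 2 with DESeq2, 0 with limma-voom (Dao, adjusted p = 0.0502), 0 without old 3 and old 4 together and 11 with DESeq2 without old 3, and it ran from 0 to 2 when 1 library was left out. The cause of these differences was not tested, beyond the smaller number of libraries where some were left out.

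Among 59 named genes, 88 of 1239 alternative log2 fold changes had the opposite sign, in 24 genes, and 0 of these were past the threshold in either fit. Calls were gained by 24 of the values and lost by 9, the 9 all for Dao. The labels name no pairing of animals by replicate number. Deviations of animals with the same number correlated at -0.10, 0.10, 0.31 and -0.17 for numbers 1 to 4. Of the 4 numbers, 2 correlated best with their own. So few values cannot decide whether the animals were paired. With the replicate block on the 8 libraries numbered 1 to 4, edgeR called 33 genes, against 39 in the same libraries with no block, and 0 enzymes and 1 other pathway gene, as without it. With 4 or 5 animals a group, changes of the size of the standard errors given cannot be told from 0.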
